A study of Mus musculus with 12 samples.

Results

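The 30 genes described here are the glucose transporters, the enzymes of glycolysis from hexokinase to pyruvate kinase with their isozymes, and the enzymes that set the level of the activator of phosphofructokinase. They were chosen by symbol, and 31 of the 40384 gene IDs of the deposited table carried those symbols, because Aldoa has 2 IDs. Of the 31 IDs, 30 passed the filter on low values (a minimum of 1 FPKM in 3 or more of the 12 libraries, where FPKM are fragments scaled by gene length and library size) and were tested. The exception was Pklr.

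Glycolysis turns glucose into pyruvate in a chain of steps that follow uptake through a transporter. Hexokinase, phosphofructokinase and pyruvate kinase catalyse the steps that are close to irreversible, and the aldolase, isomerase, dehydrogenase, kinase, mutase and enolase between them work near equilibrium. Most steps are served by several isozymes from separate genes that are used to different degrees by different tissues, and a change of isozymes is a known part of the metabolic change when fibroblasts are reprogrammed into pluripotent cells.

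Bulk RNA was sequenced from mouse cells as 12 libraries, 3 in each of 4 groups. MEF are fibroblasts from male homozygous 4F2A embryos of midgestation, a strain known for a doxycycline-inducible cassette of the reprogramming factors. D4 are 4F2A cultures at day 4 of reprogramming with the treatment OE-NC, and D4_DUX are 4F2A cultures at day 4 with the treatment OE-DUX, an overexpression that lasted 48 h per the labels. The group iPSC has the cell line label iPSC cell and no embryo or day of its own. A single culture text stands with all 12 libraries, LIF at 1000 U/mL and doxycycline at 2 μg/mL included, so the labels do not say whether MEF or iPSC received doxycycline. They do not say which DUX sequence was expressed, nor whether the libraries of a group came from separate cultures, and p-values then measure only the spread between these libraries, which may be technical.

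The libraries held 22550000 to 28130000 counted fragments, as recovered from the steps of the low values. Duxf3, the gene of mouse Dux, was listed at 0 in all 3 libraries labelled D4_DUX and reached at most 0.0247 FPKM in any library. The endogenous gene therefore does not show the overexpression on the label, a DUX sequence of another kind was not checked here, and every direction below is that of the libraries labelled D4_DUX. All 10 pluripotency markers had a mean FPKM of at least 1 in iPSC, where their sum was 1555 to 1736 FPKM against 0.181 to 0.44 in MEF. The 10 fibroblast markers summed to 6482 to 6648 FPKM in MEF, 4199 to 4308 in D4, 3619 to 3680 in the libraries labelled D4_DUX and still 1079 to 1331 in iPSC. Col1a1 alone stood at 3009 to 3083 FPKM in MEF. By the calls described below, 7 of the 10 were lower and 3 higher in D4 than in MEF (27.6% and 34.2% of all genes). In iPSC against MEF, 9 were lower and 1 higher (31.2% and 51%). Thy1, S100a4 and Dcn stood above MEF in every D4 library. The 16 macrophage markers summed to 1592 to 1641 FPKM in MEF and are set beside Hk3 below. In bulk samples, fewer cells of a type and less RNA per cell cannot be told apart.

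In the libraries labelled D4_DUX, Aldoa, Pgam1, Eno1 and Pkm, which are 4 of the 7 main genes of the chain from Aldoa to Pkm, were higher than in D4, while the other 3, Tpi1, Gapdh and Pgk1, did not pass. Among the isozymes at lower levels, Eno3 and Pfkfb2 were higher, and Aldoc, Pgam2 and Eno2 were lower. Of the 30 IDs tested, 8 rose (26.7%) against 20.1% of all 17114 genes tested, and 10 fell (33.3%) against 15.4%, so that 18 (60%) were called against 35.4%. Calls rest on a limma fit to log2(FPKM + 1) with p-values adjusted by Benjamini-Hochberg over all genes tested and a threshold of 0.05. The 8 that rose were Pfkl, Pfkfb2, Tigar, Aldoa, Pgam1, Eno1, Eno3 and Pkm. The 10 that fell were Slc2a3, Slc2a8, Hk3, Pfkm, Pfkfb3, the second Aldoa ID, Aldoc, Pgam2, Bpgm and Eno2. The changes ran from -0.63 (Hk3) to 0.53 (Eno3) on the scale of log2(FPKM + 1), with a median of -0.01 against 0.02 over all genes. The added 1 shrinks the changes of genes at low levels, and in FPKM Hk3 was 5.27-fold lower (0.145 ± 0.0573 against 0.766 ± 0.0402). The values of the 2 groups did not overlap for 24 IDs (80%), against 50.5% of all genes.

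Between MEF and D4 the pathway fell in most of its main genes. In D4, 18 of the 30 IDs were lower than in MEF (60%, against 27.6% of all genes) and 10 were higher (33.3%, against 34.2%), 28 in all (93.3%, against 61.8%). The genes that were lower included Slc2a1, Pfkl, Aldoa, Tpi1, Gapdh, Pgk1, Pgam1, Eno1 and Pkm, and those that were higher included Pfkfb4, Eno3, Tigar, Slc2a3 and Hk2. The median log2 fold change was -0.23, against 0.03 over all genes, and the range was -2.90 (Hk3) to 1.46 (Pfkfb4). For 28 IDs (93.3%) the groups did not overlap, against 66.5% of all genes.

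The iPSC libraries combined lower levels of most of these genes with a sharp rise of a few isozymes. Against MEF, 22 IDs were lower (73.3%, against 31.2% of all genes) and 7 were higher (23.3%, against 51%), 29 in all (96.7%, against 82.2%). The 7 were Slc2a3, Hk2, Pfkp, Pfkfb1, Pfkfb2, Tigar and Pgam2, and the one that was not called was Gapdh. The median was -0.65 against 0.21 over all genes, and 29 IDs (96.7%) had no overlap, against 82.4%. Against D4, 18 IDs were lower (60%, against 33.9%) and 8 were higher (26.7%, against 48.5%), 26 in all (86.7%, against 82.4%). There the median was -0.44 against 0.16, and 26 IDs (86.7%, against 82.4%) had no overlap. The comparisons share the D4 or MEF libraries, so their values are given side by side and are not independent. Scaling between libraries matters here. Median-ratio scaling and quantile normalization moved the median of all genes by -0.19 and -0.28 in iPSC against MEF, and by -0.16 and -0.23 in iPSC against D4. Of all calls in iPSC against MEF, 62.1% were higher as deposited, 51% after median-ratio scaling and 46.6% after quantile normalization. Of the 7 members that were higher, Pfkfb1, Pfkfb2 and Pgam2 did not pass after quantile normalization, and Pfkfb1 and Pgam2 did not after median-ratio scaling. In iPSC against D4 the shares were 58.8%, 50.4% and 46.7%.

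**Figure D1:**
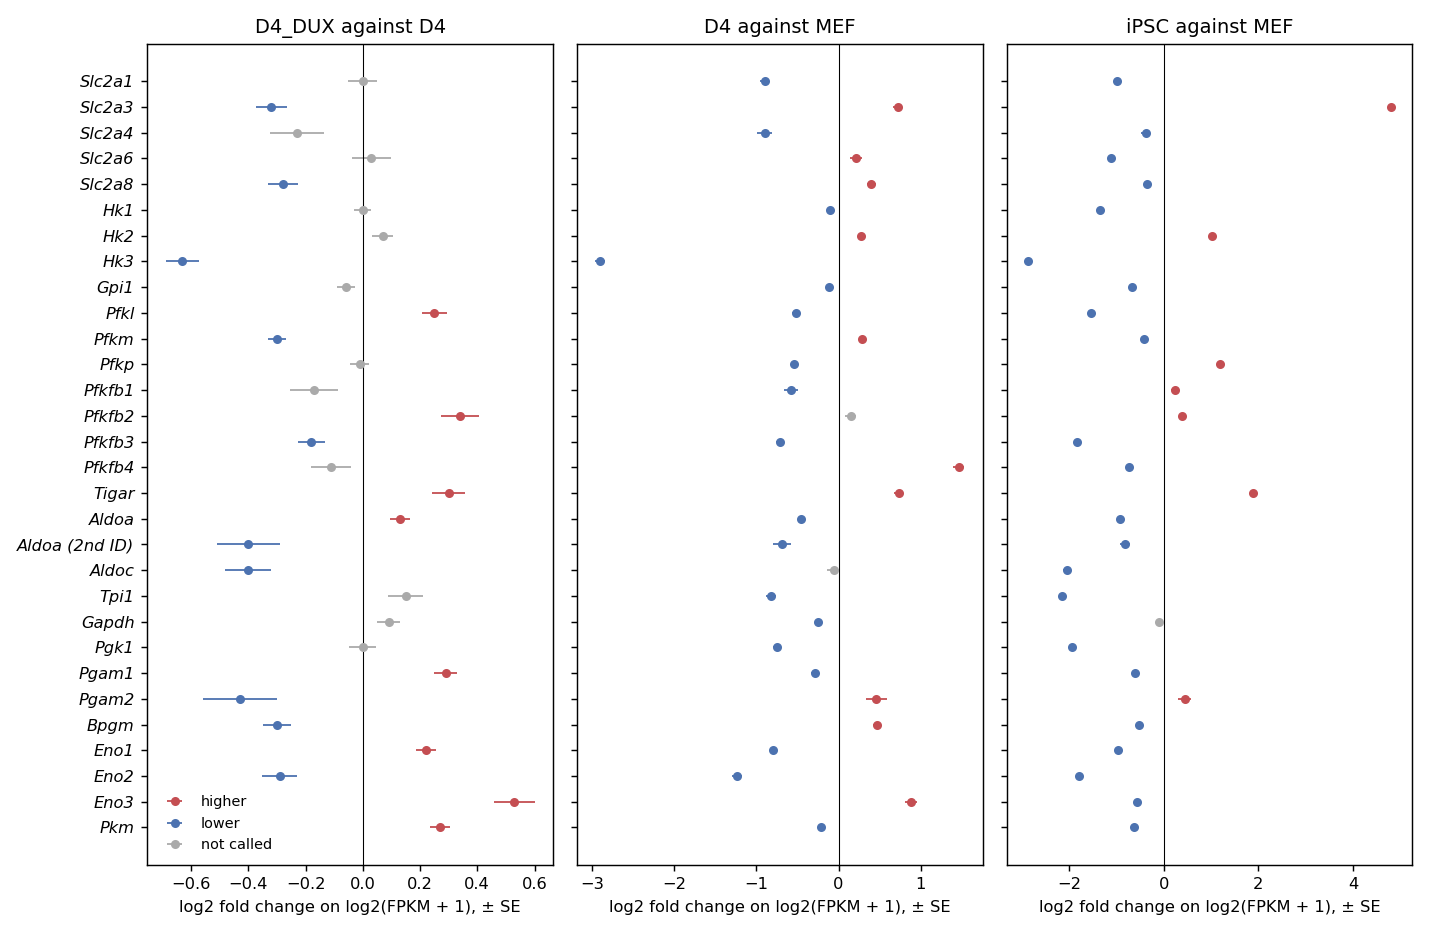
Log2 fold change on log2(FPKM + 1) of each of the 30 tested gene IDs (points, with the standard error of the limma fit as lines) for D4_DUX against D4 (left), D4 against MEF (middle) and iPSC against MEF (right), each panel with its own x axis. Red points passed as higher, blue as lower and grey did not pass. In the left panel 8 points are red and 10 blue, and in the right panel Slc2a3 stands alone at 4.81.

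Among the genes of uptake, Slc2a3 rose sharply in iPSC and Slc2a1 fell from MEF to D4. Slc2a1, which encodes the widespread basal transporter GLUT1 (chromosome 4, 119108711 to 119137983), stood at 61.2, 63.4 and 63.6 FPKM in MEF, 33.1, 32.9 and 33.4 in D4, 33.8, 34.4 and 31.3 in D4_DUX, and 33.8, 31.2 and 29.2 in iPSC. All 3 MEF libraries lay above all others, and the other 3 groups overlapped. The level in D4 was 1.9-fold below that in MEF (log2 fold change -0.90 ± 0.05, adjusted p = 2.69e-08), and it did not differ beyond the spread between D4 and the libraries labelled D4_DUX (log2 fold change 0.00 ± 0.05, adjusted p = 1) or between D4 and iPSC (log2 fold change -0.08 ± 0.05, adjusted p = 0.171). The last difference passed with median-ratio scaling (-0.26, adjusted p = 0.000276) and with quantile normalization (-0.22), and without iPSC library 1 (-0.13, adjusted p = 0.0188).

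Slc2a3 encodes GLUT3, a transporter of high affinity best known from neurons (chromosome 6, 122727809 to 122801640). Its values were 2.07, 2.1 and 1.93 FPKM in MEF, 4.05, 3.81 and 4.09 in D4, 3.07, 2.96 and 2.96 in D4_DUX, and 77.7, 83.9 and 91 in iPSC. The groups did not overlap, and their order was MEF, D4_DUX, D4, iPSC. Slc2a3 rose from MEF to D4 (log2 fold change 0.72 ± 0.05, adjusted p = 3.66e-07) and was 41.4-fold higher in iPSC than in MEF (log2 fold change 4.81 ± 0.05, adjusted p = 1.9e-14). In the libraries labelled D4_DUX it was 1.33-fold lower than in D4 (log2 fold change -0.32 ± 0.05, adjusted p = 0.00101). Counted per length, Slc2a1 made up 86% of the summed FPKM of the 5 transporters in MEF, 71.3% in D4, 75.3% in the libraries labelled D4_DUX and 26.1% in iPSC, where Slc2a3 held 69.9%. The share of Slc2a3 was 66.6, 70.1 and 73% in the 3 iPSC libraries and 2.62 to 2.91% in MEF.

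Slc2a8, which encodes an intracellular transporter, stood at 4.87, 5.08 and 4.78 FPKM in MEF, 6.88, 7.05 and 6.41 in D4, 5.08, 5.82 and 5.28 in D4_DUX, and 3.81, 3.54 and 3.57 in iPSC (chromosome 2, 32972990 to 32982083). It was highest in D4 and lowest in iPSC, and MEF and D4_DUX nearly met, at 5.076 FPKM in the highest MEF library and 5.082 in the lowest of D4_DUX. It rose from MEF to D4 (log2 fold change 0.40 ± 0.05, adjusted p = 4.58e-05) and was lower in the D4_DUX-labelled libraries than in D4 (log2 fold change -0.28 ± 0.05, adjusted p = 0.00179). Slc2a4, the insulin-responsive transporter of muscle and fat (chromosome 11, 69942539 to 69948188), ranged from 0.0541 FPKM in a D4_DUX library to 1.55 in MEF, and it fell from MEF to D4 (log2 fold change -0.90 ± 0.09, adjusted p = 6.27e-06). The groups D4 and D4_DUX did not overlap for Slc2a4, but the difference did not pass (adjusted p = 0.0835). It passed with a pseudocount of 0.1 (adjusted p = 0.00853) or 0.5 (0.039), after rescaling to TPM (0.0318) and in a fit of these 2 groups alone (0.0279), with 4.5 to 34 fragments behind each value. The 7 adipocyte markers summed to 7.54 to 8.4 FPKM in MEF and 0.969 to 1.17 in D4, and nearly all of this was Fabp4, a fatty acid carrier, at 7.23 to 8.08 FPKM in MEF and 0.833 to 1.05 in D4. Fabp4 was the only one of the 7 that was tested, and Adipoq was at 0 in every MEF library. The 13 skeletal muscle markers had a higher sum in D4 (23.2 to 26.1 FPKM) than in MEF (13.4 to 14.8), where Slc2a4 was lower in D4. The part of either list in the Slc2a4 result was not tested. Slc2a6, a further transporter of intracellular membranes (chromosome 2, 27021363 to 27027998), ranged from 0.243 in iPSC to 2.5 FPKM and was lower in iPSC than in MEF (log2 fold change -1.11 ± 0.07, adjusted p = 2.28e-08). Its rise from MEF to D4 (0.21, adjusted p = 0.0187) was lost without MEF library 1, MEF library 2, D4 library 1 or D4 library 2, with adjusted p of 0.0521 to 0.0758, and in a fit of these 2 groups alone (0.0577) or with a pseudocount of 0.1 (0.0528).

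**Figure D2:**
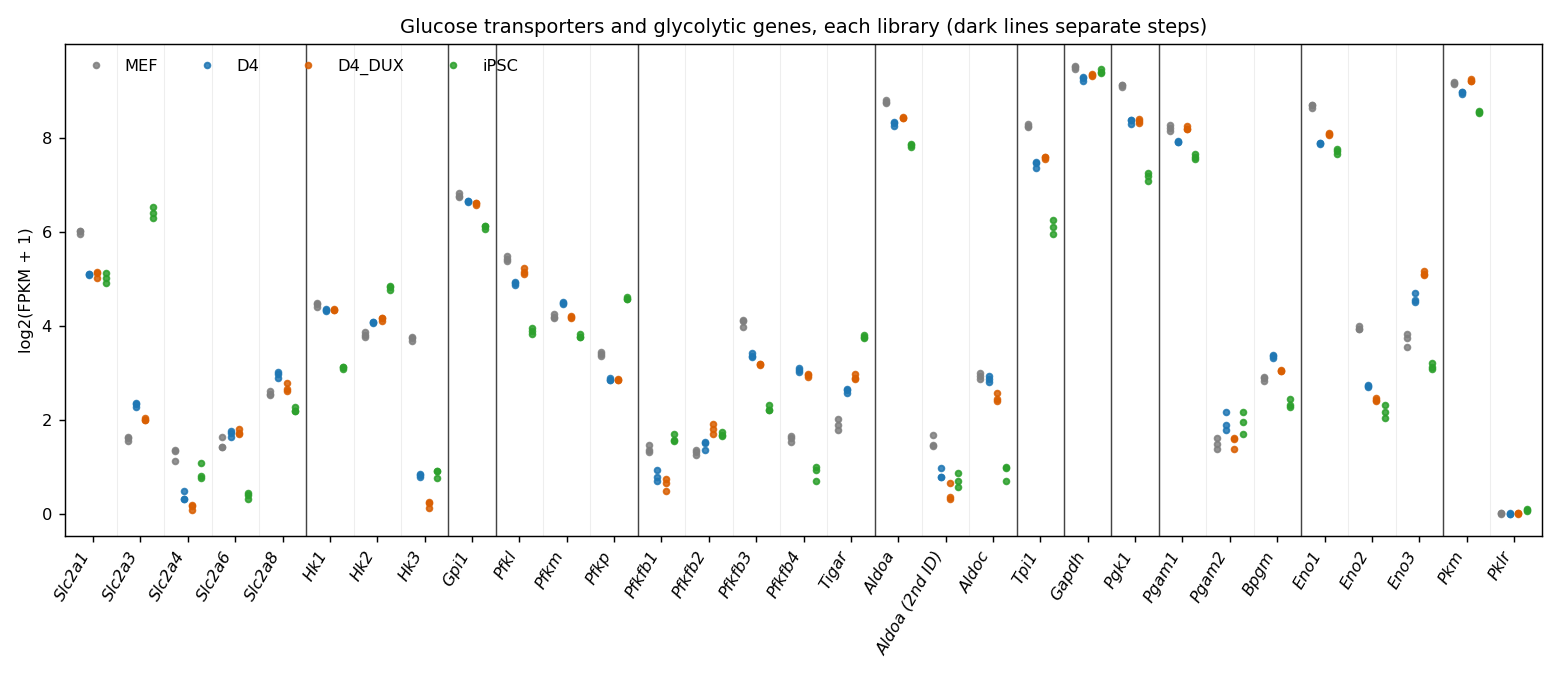
Log2(FPKM + 1) of the 31 gene IDs in each of the 12 libraries, with 1 point per library, colours for the groups and dark vertical lines between steps. The iPSC points of Slc2a3 and Pfkp lie far above the other groups, those of Tpi1 and Pgk1 far below, and Gapdh is nearly level.

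Hexokinase traps glucose in the cell as its phosphate. Hk2, the isozyme of muscle, fat and dividing cells (chromosome 6, 82725025 to 82774454), stood at 12.97, 13.54 and 12.53 FPKM in MEF, 15.96, 15.68 and 15.85 in D4, 16.19, 16.99 and 17.02 in D4_DUX, and 27.68, 26.13 and 27.55 in iPSC. The groups did not overlap and rose in the order MEF, D4, D4_DUX, iPSC, but the step between D4 and D4_DUX did not pass (log2 fold change 0.07 ± 0.04, adjusted p = 0.14). Hk2 rose from MEF to D4 (log2 fold change 0.27 ± 0.04, adjusted p = 6.28e-05) and was 2.08-fold higher in iPSC than in MEF (log2 fold change 1.01 ± 0.04, adjusted p = 1.9e-10). Hk1, the isozyme found in most tissues (chromosome 10, 62268855 to 62379908), ranged from 7.42 to 21.2 FPKM and was lower in iPSC, with a mean of 7.61 ± 0.173 FPKM (SD, n = 3) against 20.8 ± 0.509 in MEF (log2 fold change -1.34 ± 0.03, adjusted p = 3.66e-12). It did not differ beyond the spread between D4 and D4_DUX (log2 fold change -0.00 ± 0.03, adjusted p = 0.952). Hk2 made up 28.3% of hexokinase FPKM in MEF, 44.1% in D4, 46.3% in D4_DUX and 76.3% in iPSC, Hk1 held 45.2, 53.7, 53.3 and 21.4%, and Hk3 held 26.5, 2.13, 0.402 and 2.29%. The share of Hk1 was thus higher in D4 than in MEF although its level was lower (log2 fold change -0.10 ± 0.03, adjusted p = 0.011), since shares add up to the whole and that of Hk3, described next, was lower. The sum of the 3 hexokinases was 46 ± 1.32 FPKM in MEF, 35.9 ± 0.508 in D4, 36.1 ± 0.406 in D4_DUX and 35.5 ± 0.974 in iPSC (SD, n = 3).

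Hk3, the hexokinase of leukocytes (chromosome 13, 55005985 to 55021385), fell between MEF and D4. Its values were 12.4, 12.5 and 11.7 FPKM in MEF, 0.808, 0.727 and 0.764 in D4, 0.0817, 0.162 and 0.193 in D4_DUX, and 0.864, 0.889 and 0.683 in iPSC. MEF stood above all other groups, D4_DUX stood below all others, and D4 and iPSC overlapped. Hk3 was 15.9-fold lower in D4 than in MEF (log2 fold change -2.90 ± 0.06, adjusted p = 7.17e-12) and a further 5.27-fold lower in the libraries labelled D4_DUX (log2 fold change -0.63 ± 0.06, adjusted p = 1.91e-05), where 8 to 17 fragments stood behind each value. The macrophage markers moved with it from MEF to D4 and from D4 to D4_DUX. Their sum was 1592 to 1641 FPKM in MEF, 187 to 222 in D4, 46.3 to 47.5 in D4_DUX and 135 to 178 in iPSC. Lyz2 made up most of it, at 1303 ± 22.7 FPKM in MEF, 149 ± 14.5 in D4, 31 ± 1.23 in D4_DUX and 103 ± 17.7 in iPSC. Of these 16 markers, 16 were lower in D4 than in MEF (27.6% of all genes) and 15 were lower in D4_DUX than in D4 (15.4%). None of them was at 0 in every library of any group. The 10 neutrophil markers summed to 3.99 to 4.57 FPKM in MEF and to 1.15 to 1.87 in D4. The 2 of them that were tested were both lower in D4 than in MEF, as Hk3 was, against 27.6% of all genes. A further 4 (S100a9, Ly6g, Ltf and Retnlg) were at 0 in every MEF library. The part of these cells in the Hk3 result was not tested. In iPSC against D4, Hk3 did not differ beyond the spread (0.04, adjusted p = 0.592), and quantile normalization gave the opposite sign (-0.41). There 9 of the 16 macrophage markers were lower and 3 higher (33.9% and 48.5% of all genes).

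**Figure D3:**
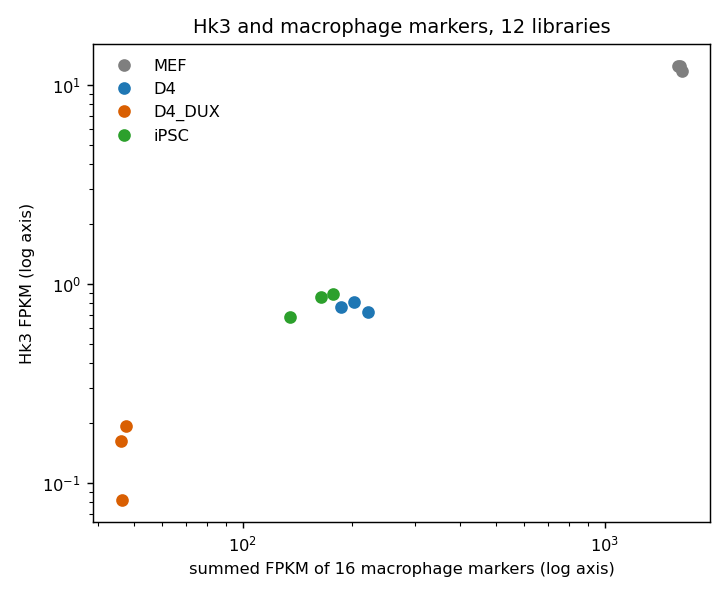
FPKM of Hk3 against the summed FPKM of 16 macrophage markers in the 12 libraries, both on log axes, coloured by group. The 3 MEF libraries stand at 1592 to 1641 on the x axis and 11.7 to 12.5 on the y axis, and the 3 D4_DUX libraries at 46.3 to 47.5 and 0.0817 to 0.193. Lyz2 makes up most of the sum (1303 ± 22.7 FPKM in MEF).

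Gpi1, which converts the phosphate of glucose to that of fructose (chromosome 7, 34201330 to 34230336), stood at 107, 112 and 106 FPKM in MEF, 100, 98.6 and 98.9 in D4, 93.2, 96.3 and 96.4 in D4_DUX, and 65.8, 68.1 and 68.5 in iPSC. Each group lay below the one before it in the order MEF, D4, D4_DUX, iPSC, without overlap. The fall from MEF to D4 passed (log2 fold change -0.12 ± 0.03, adjusted p = 0.00518), as did that from MEF to iPSC (log2 fold change -0.67 ± 0.03, adjusted p = 1.76e-09), and the difference between D4 and D4_DUX did not (log2 fold change -0.06 ± 0.03, adjusted p = 0.19).

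Phosphofructokinase commits the sugar to glycolysis, and its subunits are named for liver, muscle and platelet. Pfkl, the liver-type subunit (chromosome 10, 77986947 to 78010083), stood at 40.8, 41.7 and 43.7 FPKM in MEF, 28.1, 29.2 and 29.5 in D4, 34.2, 33.4 and 36.2 in D4_DUX, and 14.4, 13.1 and 13.9 in iPSC. Its groups did not overlap, and D4_DUX lay between MEF and D4. Pfkl fell from MEF to D4 (log2 fold change -0.52 ± 0.04, adjusted p = 8.26e-07) and was 1.2-fold higher in the D4_DUX-labelled libraries than in D4 (log2 fold change 0.25 ± 0.04, adjusted p = 0.00113). Pfkm, the muscle-type subunit (chromosome 15, 98092589 to 98132451), went the other way at both points, with values of 17, 18.1 and 17.1 FPKM in MEF, 21.1, 21.7 and 21.5 in D4, 16.9, 17.3 and 17.5 in D4_DUX, and 12.6, 12.6 and 13.1 in iPSC. D4 was above all other groups, and the ranges of MEF and D4_DUX overlapped. Pfkm rose from MEF to D4 (log2 fold change 0.29 ± 0.03, adjusted p = 1.29e-05) and fell from D4 to D4_DUX (log2 fold change -0.30 ± 0.03, adjusted p = 5.2e-05). 

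Pfkp, the platelet-type subunit (chromosome 13, 6579768 to 6648777), stood at 9.47, 9.3 and 9.84 FPKM in MEF, 6.13, 6.19 and 6.41 in D4, 6.28, 6.14 and 6.17 in D4_DUX, and 23.4, 22.6 and 22.8 in iPSC. The iPSC libraries lay above all others, and D4 and D4_DUX overlapped (log2 fold change -0.01 ± 0.03, adjusted p = 0.878). Pfkp was 2.41-fold higher in iPSC than in MEF (log2 fold change 1.18 ± 0.03, adjusted p = 2.05e-11), where Pfkl was 3.05-fold lower (log2 fold change -1.54 ± 0.04, adjusted p = 2.15e-11). The leading subunit was thus Pfkl in MEF (61% of the summed FPKM), D4 (51.1%) and D4_DUX (59.7%), and Pfkp in iPSC (46.4%, with Pfkl at 27.9% and Pfkm at 25.8%). The share of Pfkp was 45.8 to 46.9% in the iPSC libraries and 10.3 to 14.1% in the other 9. The summed FPKM of the 3 subunits changed less, from 69 ± 1.66 in MEF to 49.5 ± 1.06 in iPSC.

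**Figure D4:**
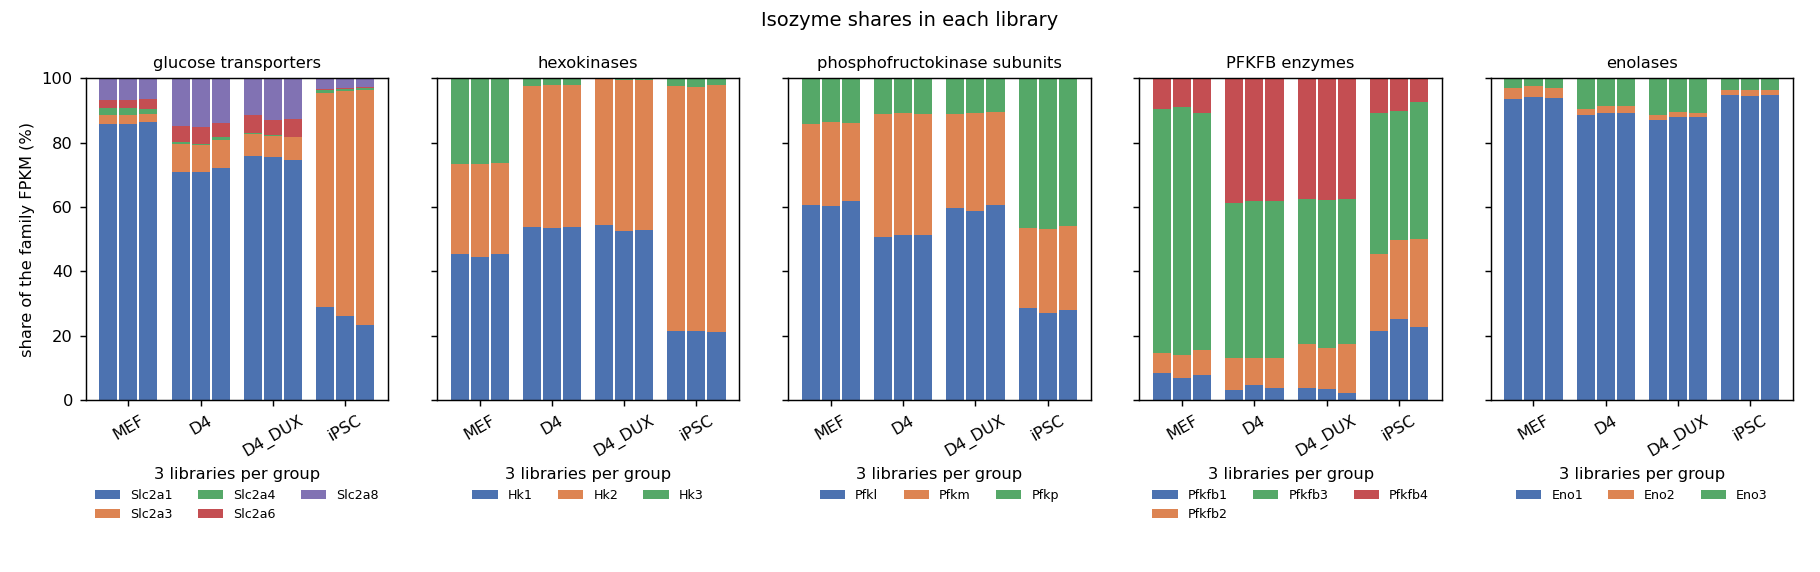
Share (%) of each isozyme in the summed FPKM of its family, with 1 bar per library in groups of 3, for glucose transporters, hexokinases, phosphofructokinase subunits, PFKFB enzymes and enolases. In iPSC, Slc2a3, Hk2 and Pfkp hold the largest parts, against Slc2a1, Hk1 and Pfkl in the other groups.

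The PFKFB enzymes make and break down the sugar bisphosphate that activates phosphofructokinase. Pfkfb3, the inducible form with mostly synthetic activity (chromosome 2, 11471433 to 11554077), stood at 16.1, 16.4 and 14.8 FPKM in MEF, 9.18, 9.04 and 9.62 in D4, 8.13, 8 and 8.12 in D4_DUX, and 3.95, 3.58 and 3.6 in iPSC. It fell in the order MEF, D4, D4_DUX, iPSC, without overlap. The differences passed from MEF to D4 (log2 fold change -0.71 ± 0.05, adjusted p = 1.12e-07), from D4 to D4_DUX (log2 fold change -0.18 ± 0.05, adjusted p = 0.0116) and from D4 to iPSC (log2 fold change -1.13 ± 0.05, adjusted p = 4.82e-10). Pfkfb4, named for the testis form (chromosome 9, 108991778 to 109032228), stood at 2.06, 1.88 and 2.15 FPKM in MEF, 7.34, 7.11 and 7.52 in D4, 6.72, 6.55 and 6.8 in D4_DUX, and 0.985, 0.894 and 0.617 in iPSC. Both day 4 groups were above MEF and iPSC. Pfkfb4 was 3.61-fold higher in D4 than in MEF (log2 fold change 1.46 ± 0.07, adjusted p = 7.86e-09) and 8.8-fold lower in iPSC than in D4 (log2 fold change -2.19 ± 0.07, adjusted p = 5.63e-11). D4 and D4_DUX did not overlap for Pfkfb4, but the difference did not pass (log2 fold change -0.11 ± 0.07, adjusted p = 0.239) except in a fit of these 2 groups alone (adjusted p = 0.0463).

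Pfkfb2, named for the heart form (chromosome 1, 130689182 to 130729253), stood at 1.38, 1.5 and 1.56 FPKM in MEF, 1.84, 1.56 and 1.88 in D4, 2.47, 2.23 and 2.74 in D4_DUX, and 2.16, 2.2 and 2.33 in iPSC. Every D4_DUX library was above every D4 library, and the difference was 1.41-fold (log2 fold change 0.34 ± 0.07, adjusted p = 0.00252). Its higher level in iPSC than in MEF (log2 fold change 0.38 ± 0.07, adjusted p = 0.000202) was lost after quantile normalization (0.09, adjusted p = 0.244), and that in iPSC over D4 after median-ratio scaling (0.10, adjusted p = 0.172). Its difference between D4 and MEF did not pass (log2 fold change 0.15 ± 0.07, adjusted p = 0.0638) but did without D4 library 2 (0.21, adjusted p = 0.0218). Pfkfb1, named for the liver form (chromosome X, 150588229 to 150643878), ranged from 0.395 FPKM in D4_DUX to 2.26 in iPSC. Its rise in iPSC against MEF (0.23, adjusted p = 0.0262) was lost without MEF library 2 (0.0905), MEF library 3 (0.0627) or iPSC library 2 (0.098), and quantile normalization reversed it (-0.07). It was also lost with a pseudocount of 0.1 (0.0929), without a filter on low values (0.0572), as TPM (0.0715) and after median-ratio scaling (0.464). In shares of the 4 enzymes, Pfkfb3 went from 75.5% in MEF to 48.6% in D4, 45.4% in D4_DUX and 42.1% in iPSC. Pfkfb4 stood at 9.73, 38.3, 37.6 and 9.39%. In iPSC, Pfkfb1 held 23.2% and Pfkfb2 25.3%, against 7.67 and 7.09% in MEF. The summed FPKM was 20.9 ± 0.685 in MEF, 19.1 ± 0.585 in D4, 17.8 ± 0.384 in D4_DUX and 8.82 ± 0.306 in iPSC.

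Tigar, a p53-induced phosphatase that lowers the same activator (chromosome 6, 127085116 to 127109557), stood at 2.42, 3.02 and 2.68 FPKM in MEF, 5.26, 5.17 and 4.94 in D4, 6.24, 6.44 and 6.9 in D4_DUX, and 13, 12.3 and 12.5 in iPSC. The 4 groups did not overlap and rose in the order MEF, D4, D4_DUX, iPSC. Tigar rose at each comparison made, by 1.89-fold from MEF to D4 (log2 fold change 0.73 ± 0.06, adjusted p = 6.57e-07), by 1.27-fold from D4 to D4_DUX (log2 fold change 0.30 ± 0.06, adjusted p = 0.00257) and by 2.46-fold from D4 to iPSC (log2 fold change 1.15 ± 0.06, adjusted p = 3.25e-09).

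Aldolase splits the sugar into trioses. Aldoa, the muscle-type and main form (chromosome 7, 126795234 to 126800751), stood at 423, 435 and 443 FPKM in MEF, 316, 322 and 305 in D4, 343, 341 and 346 in D4_DUX, and 233, 222 and 228 in iPSC. The order was MEF, D4_DUX, D4, iPSC, without overlap. Aldoa fell from MEF to D4 (log2 fold change -0.46 ± 0.03, adjusted p = 3.39e-07) and was 1.09-fold higher in D4_DUX than in D4 (log2 fold change 0.13 ± 0.03, adjusted p = 0.0149), a call that was lost without D4_DUX library 3 (adjusted p = 0.0525). Aldoc, the brain-type form (chromosome 11, 78322968 to 78327781), stood at 6.93, 6.28 and 6.62 FPKM in MEF, 5.94, 6.28 and 6.61 in D4, 4.26, 4.41 and 4.9 in D4_DUX, and 0.975, 0.622 and 0.98 in iPSC. MEF and D4 overlapped, D4_DUX was below both, and iPSC was lowest. Aldoc did not differ beyond the spread between MEF and D4 (log2 fold change -0.06 ± 0.08, adjusted p = 0.517), fell in D4_DUX (log2 fold change -0.40 ± 0.08, adjusted p = 0.00285) and was 7.7-fold lower in iPSC than in MEF (log2 fold change -2.04 ± 0.08, adjusted p = 3.54e-10). Aldoa remained at least 97.8% of the aldolase FPKM in the mean of every group. The second Aldoa ID, ENSMUSG00000114515 (chromosome 7, 126800790 to 126809108), lies next to the main gene model and held 1.75, 2.2 and 1.72 FPKM in MEF, 0.722, 0.706 and 0.956 in D4, 0.235, 0.279 and 0.575 in D4_DUX, and 0.624, 0.817 and 0.477 in iPSC. It was lower in D4_DUX than in D4 (-0.40, adjusted p = 0.0155), on 5 to 19 fragments per library, and the call was lost without D4 library 3 (0.0594), D4_DUX library 1 (0.0643) or D4_DUX library 2 (0.0554).

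Tpi1, the isomerase that interconverts the trioses (chromosome 6, 124810586 to 124814296), stood at 299, 301 and 312 FPKM in MEF, 174, 177 and 163 in D4, 187, 191 and 191 in D4_DUX, and 75, 67.9 and 61 in iPSC. The groups did not overlap, and MEF was highest and iPSC lowest. Tpi1 was 1.77-fold lower in D4 than in MEF (log2 fold change -0.82 ± 0.06, adjusted p = 3.66e-07) and 4.47-fold lower in iPSC than in MEF (log2 fold change -2.15 ± 0.06, adjusted p = 2.63e-11). The difference between D4_DUX and D4 did not pass (log2 fold change 0.15 ± 0.06, adjusted p = 0.09), except in a fit of these 2 groups alone (adjusted p = 0.0243).

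Gapdh, the dehydrogenase that feeds on the triose and is often used as a reference gene (chromosome 6, 125161715 to 125166467), stood at 701, 732 and 730 FPKM in MEF, 621, 616 and 587 in D4, 638, 644 and 654 in D4_DUX, and 663, 675 and 701 in iPSC. D4 lay below the other groups, and MEF and iPSC overlapped. Gapdh fell from MEF to D4 (log2 fold change -0.25 ± 0.04, adjusted p = 0.000234) and did not pass in D4_DUX against D4 (log2 fold change 0.09 ± 0.04, adjusted p = 0.12), where quantile normalization gave 0.11 and an adjusted p of 0.0379. In iPSC against MEF the fold change was -0.09 (adjusted p = 0.0684), -0.33 after median-ratio scaling (adjusted p = 1.73e-05) and 0.28 after quantile normalization (adjusted p = 1.22e-05), so the direction depends on the scaling. It also passed as lower without iPSC library 3 (-0.11, adjusted p = 0.0321), as TPM (0.0333) and with the copies described next summed (-0.10, adjusted p = 0.0486). In iPSC against D4 Gapdh was higher (0.16, adjusted p = 0.00295), and median-ratio scaling gave -0.03. The table holds 141 near-identical copies of Gapdh under other IDs, to which 25.1 to 33.2% of the fragments of the gene and its copies were assigned. The sources used here do not say how such reads were counted, and the level of Gapdh is uncertain to that extent.

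Pgk1, the kinase that makes the first ATP of the pathway (chromosome X, 106187100 to 106203699), stood at 552, 537 and 559 FPKM in MEF, 331, 333 and 313 in D4, 315, 326 and 336 in D4_DUX, and 151, 145 and 134 in iPSC. D4 and D4_DUX overlapped, MEF was above both and iPSC below both. Pgk1 fell from MEF to D4 (log2 fold change -0.75 ± 0.05, adjusted p = 8.08e-08), did not differ beyond the spread between D4 and D4_DUX (log2 fold change 0.00 ± 0.05, adjusted p = 0.991), and was 3.83-fold lower in iPSC than in MEF (log2 fold change -1.93 ± 0.05, adjusted p = 7.47e-12).

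The mutases move the phosphate along the chain. Pgam1, the main form (chromosome 19, 41911923 to 41918660), stood at 281, 296 and 307 FPKM in MEF, 243, 239 and 238 in D4, 292, 290 and 301 in D4_DUX, and 200, 187 and 192 in iPSC. D4_DUX was above D4 and within the range of MEF, and iPSC was lowest. Pgam1 fell from MEF to D4 (log2 fold change -0.29 ± 0.04, adjusted p = 5.35e-05) and was 1.23-fold higher in D4_DUX than in D4 (log2 fold change 0.29 ± 0.04, adjusted p = 0.000238). A pair of processed copies held 6.55 to 8.25% of its fragments, and the call was the same with them summed. Pgam2, the muscle form (chromosome 11, 5801640 to 5803733), stood at 2.05, 1.8 and 1.59 FPKM in MEF, 3.51, 2.68 and 2.44 in D4, 1.59, 2.04 and 2 in D4_DUX, and 2.85, 3.45 and 2.22 in iPSC. It was lower in D4_DUX than in D4 (log2 fold change -0.43 ± 0.13, adjusted p = 0.0254), without overlap, and the call was lost without D4 library 1 (adjusted p = 0.0988) or D4_DUX library 1 (0.0952), or with no filter on low values (0.0705). Its higher level in iPSC than in MEF (0.44, adjusted p = 0.00807) did not pass after median-ratio scaling (0.0721) or quantile normalization (0.297). The 13 skeletal muscle markers summed to 13.4 to 14.8 FPKM in MEF, 23.2 to 26.1 in D4 and 19.6 to 20.5 in D4_DUX, with D4 highest of these 3 groups, as for Pgam2. Of the 6 tested, 4 were higher in D4 than in MEF, against 34.2% of all genes. In D4_DUX against D4, 2 of these markers were lower and 1 was higher, against 15.4% and 20.1% of all genes. Their part in the Pgam2 result was not tested. Bpgm, the mutase of red cells (chromosome 6, 34476207 to 34505613), stood at 6.38, 6.12 and 6.52 FPKM in MEF, 9.31, 8.96 and 9.18 in D4, 7.31, 7.22 and 7.19 in D4_DUX, and 4.46, 3.81 and 3.96 in iPSC. The groups did not overlap, D4 was highest and iPSC lowest. Bpgm rose from MEF to D4 (log2 fold change 0.47 ± 0.05, adjusted p = 5.18e-06) and fell from D4 to D4_DUX (log2 fold change -0.30 ± 0.05, adjusted p = 0.000687). Of the 11 erythroid markers, 9 were in the table and 1, Hbb-y, was tested. Hbb-y was at 0 in MEF, at 29.2 ± 2.27 FPKM in D4 and at 41.4 ± 1.57 in D4_DUX, so it was higher in D4_DUX where Bpgm was lower. The sum of the 9 was 0.717 to 1.05 FPKM in MEF, 27.1 to 31.7 in D4 and 40.5 to 43.4 in D4_DUX, nearly all of it Hbb-y in the last 2 groups, with Hba-x at 0 and Klf1 at most 0.0525 FPKM in D4. Their part in the Bpgm result was not tested.

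Enolase makes the high-energy phosphate that pyruvate kinase uses. Eno1, the form of most tissues (chromosome 4, 150236721 to 150248879), stood at 397, 412 and 411 FPKM in MEF, 234, 234 and 231 in D4, 266, 271 and 275 in D4_DUX, and 216, 200 and 208 in iPSC. MEF was highest, D4_DUX lay between MEF and D4, and iPSC was lowest, without overlap. Eno1 was 1.75-fold lower in D4 than in MEF (log2 fold change -0.80 ± 0.04, adjusted p = 3.78e-09) and 1.16-fold higher in D4_DUX than in D4 (log2 fold change 0.22 ± 0.04, adjusted p = 0.00083). In iPSC against D4 it was lower (-0.16, adjusted p = 0.0012), but quantile normalization gave 0.04 with no call. Near-identical copies, chiefly Eno1b, held 7.93 to 13.4% of the fragments of Eno1 and its copies, and Eno1b too was higher in D4_DUX than in D4 (107 ± 4.35 against 92.3 ± 4.11 FPKM, log2 fold change 0.21, adjusted p = 0.00368). From MEF to D4, where Eno1 fell, Eno1b stood at 92.1 ± 3 and 92.3 ± 4.11 FPKM (adjusted p = 0.987).

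Eno3, the muscle enolase (chromosome 11, 70657202 to 70662513), stood at 13.1, 10.7 and 12.3 FPKM in MEF, 24.9, 22.3 and 21.8 in D4, 34.9, 32.6 and 33.4 in D4_DUX, and 8.29, 7.43 and 7.76 in iPSC. The groups did not overlap, and D4_DUX was highest. Eno3 rose from MEF to D4 by 1.91-fold (log2 fold change 0.88 ± 0.07, adjusted p = 6.16e-07) and from D4 to D4_DUX by 1.46-fold (log2 fold change 0.53 ± 0.07, adjusted p = 0.000203), and it was 2.94-fold lower in iPSC than in D4 (log2 fold change -1.44 ± 0.07, adjusted p = 2.24e-09). Its share of enolase FPKM was 2.78% in MEF, 8.8% in D4, 10.9% in D4_DUX and 3.56% in iPSC. The skeletal muscle markers set beside Pgam2 summed to 81.5 to 90 FPKM in iPSC, of which Mylpf held 66.2 to 76.8. Myod1 and Myf5 were at 0 in every D4 and D4_DUX library. The sum of the muscle markers was lower in D4_DUX than in D4, where Eno3 was higher, but the single markers differed. Acta1 rose as Eno3 did, from 3.04 to 3.98 FPKM in MEF to 6.85 to 7.55 in D4 and 9.29 to 10.7 in D4_DUX. Des stood at 10.3 to 11.7 FPKM in D4 and 4.44 to 5.86 in D4_DUX. The part of the muscle markers in the Eno3 result was not tested. Eno2, the neuronal enolase (chromosome 6, 124760053 to 124769673), stood at 14.2, 15 and 14.2 FPKM in MEF, 5.65, 5.43 and 5.56 in D4, 4.31, 4.47 and 4.29 in D4_DUX, and 3.07, 3.95 and 3.45 in iPSC and fell without overlap in the order MEF, D4, D4_DUX, iPSC. Eno2 was 2.61-fold lower in D4 than in MEF (log2 fold change -1.24 ± 0.06, adjusted p = 1e-08) and lower again in D4_DUX (log2 fold change -0.29 ± 0.06, adjusted p = 0.00395). The 10 neural markers summed to 25.1 to 25.3 FPKM in MEF, 55 to 58 in D4 and 79 to 84.9 in D4_DUX. All 3 that were tested were higher at both points (34.2% and 20.1% of all genes), where Eno2 was lower. Map2 and Gfap, which were not tested, were lower in D4 than in MEF, as Eno2 was. Map2 went from 0.781 to 0.811 FPKM in MEF to 0.38 to 0.44 in D4, and Gfap from 0.721 to 0.973 to 0.431 to 0.572. The part of the neural markers in the Eno2 result was not tested.

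Pyruvate kinase closes the pathway. Pkm, whose transcript is spliced into the M1 and M2 forms (chromosome 9, 59656368 to 59679375), stood at 575, 564 and 580 FPKM in MEF, 503, 483 and 500 in D4, 609, 592 and 593 in D4_DUX, and 379, 365 and 373 in iPSC. D4_DUX was highest, followed by MEF, D4 and iPSC, and no groups overlapped. Pkm fell from MEF to D4 (log2 fold change -0.21 ± 0.03, adjusted p = 0.000244), a call that was lost after quantile normalization (-0.10, adjusted p = 0.0877). It was 1.21-fold higher in D4_DUX than in D4 (log2 fold change 0.27 ± 0.03, adjusted p = 0.000153) and 1.54-fold lower in iPSC than in MEF (log2 fold change -0.62 ± 0.03, adjusted p = 7.58e-09). A gene table cannot separate the spliced forms. Pklr, the form of liver and red cells (chromosome 3, 89136142 to 89146784), had 0 to 6.25 fragments per library and reached 3 fragments only in iPSC, so it was not detectable at this depth in the other 9 libraries (3 fragments correspond to 0.033 to 0.0411 FPKM, which covers counting error only).

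Summed over the steps, the 31 IDs held 3646 ± 56.6 FPKM in MEF, 2697 ± 44.6 in D4, 2977 ± 26.8 in D4_DUX and 2206 ± 28.2 in iPSC (SD, n = 3). These sums were 1.18, 0.869, 0.966 and 0.708% of all FPKM of a library. The 7 main genes from Aldoa to Pkm made up most of them, with 2421, 2403 and 2338 FPKM in D4 and 2650, 2656 and 2696 in D4_DUX. The 2 groups did not overlap, and an exact two-sided permutation test gave p = 0.1, the smallest that 3 against 3 libraries allow. The transporters were the step that rose in iPSC, from 72.9 ± 1.36 FPKM in MEF to 120 ± 4.01 (exact permutation p = 0.1), while the sum of the 7 main genes was 1892 ± 27.4 in iPSC against 3283 ± 57 in MEF. Nor could any isozyme share pass a threshold of 0.05 in this design.

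**Figure D5:**
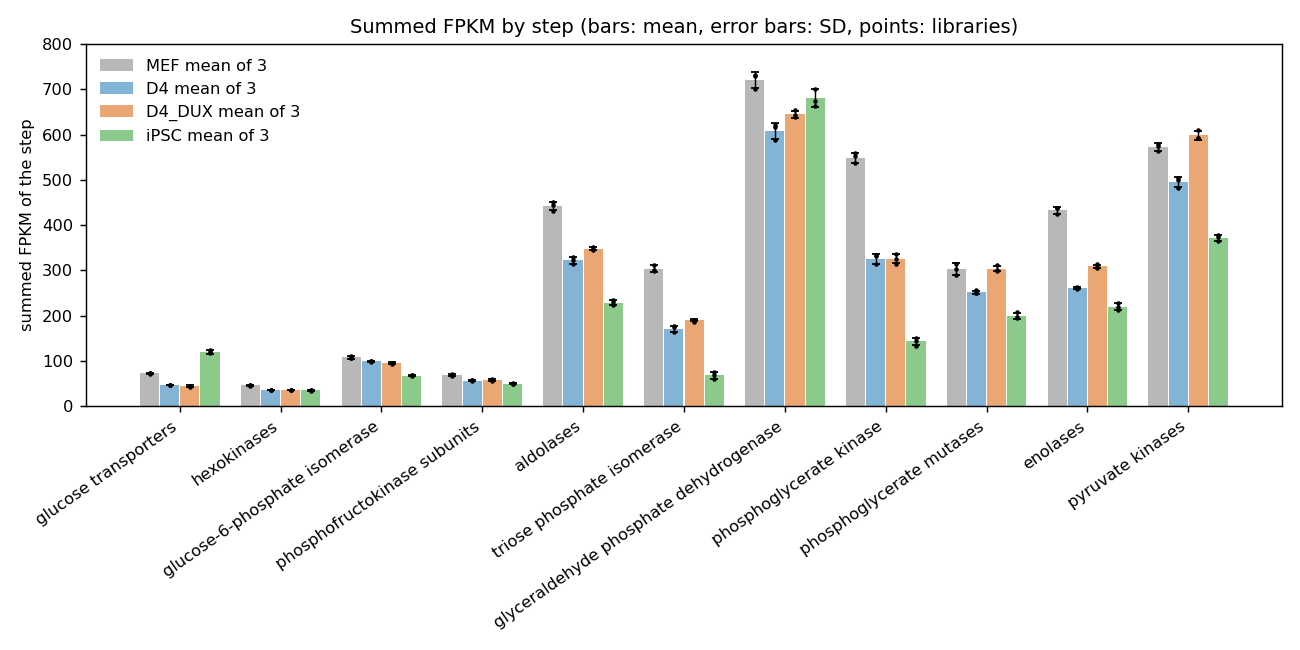
Summed FPKM of each step (bars: mean of 3 libraries, error bars: SD, points: libraries) in MEF, D4, D4_DUX and iPSC. From aldolases to pyruvate kinases, the MEF bar is above the D4 bar at every step, and the iPSC bar is above the MEF bar for glucose transporters.

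The bases before the start sites of 28 of the 30 genes were read from RefSeq promoters of build GRCm38.p6, and no entry was found for Slc2a3 and Slc2a4. The letters ACGTG, the core of the hypoxia response element, were searched on both strands in the 250 bases before each annotated start. They stood in 14 of 45 promoters of these genes (10 of 28 genes), against 16.6% of all 32851 promoters. That share is by promoter, and no share by gene was taken over all genes. Some windows of a gene overlap, so a match can count more than once, as in Aldoa, where the same match lies at -202 and at -126 of overlapping windows. CACGTG, the E-box, which also contains ACGTG, stood in 3 of 45 against 6.02%, and GGGCGG, the GC box, in 20 of 45 against 32.7%. The median GC content was 55.6% against 52.4%, and several genes have more than 1 promoter in the table. Of the genes with ACGTG, Slc2a1, Hk3, Pfkm, Pfkfb3, Aldoa, Pgk1, Pgam1 and Pkm were lower in iPSC than in MEF. Hk2 and Pfkfb2 were higher. Of all genes, 31.2% were lower and 51% higher, and of the 30 tested IDs of this report, with or without the letters, 73.3% were lower and 23.3% higher. A set of 3 was picked because all hold ACGTG on either strand while their genes moved in different directions, Pgk1 and Aldoa being lower and Hk2 higher in iPSC than in MEF. Another Aldoa promoter (chr7:126800448-126800697) held no ACGTG. Capitals mark ACGTG or its reverse complement. The positions, counted back from the start site, are -150 and -131 in Pgk1 (chrX:106186850-106187099, plus strand), -126 in Aldoa (chr7:126799255-126799504, minus strand) and -226 and -52 in Hk2 (chr6:82774455-82774704, minus strand), each printed 5′ to 3′ in the direction of the gene.
Pgk1: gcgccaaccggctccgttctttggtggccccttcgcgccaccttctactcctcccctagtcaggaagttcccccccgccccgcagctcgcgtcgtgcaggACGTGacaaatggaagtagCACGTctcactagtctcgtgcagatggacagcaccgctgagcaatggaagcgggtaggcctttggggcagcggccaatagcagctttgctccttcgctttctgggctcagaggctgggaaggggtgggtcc
Aldoa: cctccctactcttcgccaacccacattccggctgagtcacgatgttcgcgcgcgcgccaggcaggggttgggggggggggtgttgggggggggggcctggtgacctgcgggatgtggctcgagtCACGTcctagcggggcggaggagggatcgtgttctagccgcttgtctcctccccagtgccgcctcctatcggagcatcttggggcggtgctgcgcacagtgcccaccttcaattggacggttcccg
Hk2: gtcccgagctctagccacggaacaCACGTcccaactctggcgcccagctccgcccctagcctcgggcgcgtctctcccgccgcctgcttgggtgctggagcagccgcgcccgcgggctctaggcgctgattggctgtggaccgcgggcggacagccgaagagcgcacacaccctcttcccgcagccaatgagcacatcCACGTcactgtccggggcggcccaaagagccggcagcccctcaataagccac
A match to these letters is a description of the sequence and not a binding site.

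Other genes around the pathway moved as follows. Of 20 hypoxia targets outside glycolysis, 13 were lower and 3 higher in D4 than in MEF, where 27.6% of all genes were lower and 34.2% higher. In iPSC against MEF 17 were lower and 2 higher (median -1.32), against 31.2% and 51% of all genes. In D4_DUX against D4 6 were lower and 4 higher (median -0.01), against 15.4% and 20.1% of all genes. Among them Bnip3, a mitophagy receptor, fell from 69.6 ± 2.63 FPKM in MEF to 31.7 ± 0.46 in D4, while Bhlhe40 rose from 21.4 ± 1.14 to 40.7 ± 0.795. Adm, the adrenomedullin gene, fell from 31.4 ± 1.04 in D4 to 14.4 ± 0.354 in D4_DUX (adjusted p = 8.03e-07). Hif1a, the oxygen-regulated subunit of the hypoxia factor, stood at 157 ± 3.29 FPKM in MEF, 71.5 ± 1.02 in D4, 52.8 ± 1.36 in D4_DUX and 67.6 ± 2.7 in iPSC. It fell from MEF to D4 (-1.12, adjusted p = 2.17e-10) and from D4 to D4_DUX (-0.43, adjusted p = 6.71e-06). Epas1, another hypoxia regulator, rose from 8.91 ± 0.608 FPKM in D4 to 12.7 ± 0.497 in D4_DUX (0.47, adjusted p = 0.000119). In iPSC it stood at 16.5 ± 1.21 against 8.69 ± 0.247 in MEF. Of the 9 hypoxia regulators tested, 2 were higher and 4 lower in D4 against MEF (34.2% and 27.6% of all genes). In D4_DUX against D4, 4 were higher and 2 lower (20.1% and 15.4%), and in iPSC against MEF 2 and 4 (51% and 31.2%).

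Txnip, a glucose-responsive inhibitor of glucose uptake, showed the largest fall of its list in D4_DUX, from 122 ± 9.89 FPKM in D4 to 35.4 ± 2.67 (log2 fold change -1.76, adjusted p = 1.04e-07). Its relative Arrdc4 fell from 12.1 ± 1.28 to 6.76 ± 0.716 (-0.75, adjusted p = 4.34e-05). Of the 9 genes tested in this list of glucose response and control, 3 rose and 2 fell in D4_DUX, where 20.1% of all genes rose and 15.4% fell. Of 11 pentose phosphate genes tested, 4 rose and 2 fell in the same comparison, with Pgd and G6pdx, the dehydrogenases that make NADPH, at 0.35 and 0.31 on the log2 scale. In D4 against MEF 8 rose and 1 fell, against 34.2% and 27.6% of all genes. In iPSC against MEF 7 rose and 2 fell (median 0.57), against 51% and 31.2% of all genes, with Prps1, which makes the ribose donor of nucleotide synthesis, rising from 10.3 ± 0.578 to 45.7 ± 0.689 FPKM.

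The 4 factors known to direct the splicing of Pkm, Hnrnpa1, Hnrnpa2b1, Ptbp1 and Srsf3, all fell from MEF to D4 and were all higher in iPSC than in MEF. Of all genes, 27.6% were lower in D4 than in MEF and 51% were higher in iPSC than in MEF. In D4_DUX against D4, 3 of the 4 rose (20.1% of all genes), and Hnrnpa1 stood at 123 ± 1.32 against 125 ± 2.26 FPKM. Of 5 gluconeogenesis genes tested, 4 rose and 1 fell in D4 against MEF (34.2% and 27.6% of all genes), with Pcx, which carboxylates pyruvate, going from 9.77 ± 0.573 to 16.4 ± 0.986 FPKM. In D4_DUX against D4, Slc37a4 rose (0.26, adjusted p = 0.0115) and Pck2 fell (-0.29, adjusted p = 0.00333). Of 12 further isozymes and transporters tested, 4 rose in D4_DUX against D4 (20.1% of all genes), namely Slc2a12, Eno1b, Pgm1 and Pgp. Slc2a12 stood at 3.47 ± 0.195 FPKM in D4_DUX against 2.27 ± 0.198 in D4 (adjusted p = 0.000511). Against MEF, the iPSC libraries held more Slc5a1, a sodium-coupled glucose transporter (2.83 ± 0.3 FPKM against 0.00577 ± 0.01), and less Pgm1, which links glycolysis to glycogen (13 ± 0.13 against 49.2 ± 0.963).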

How the data were processed

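RNA-seq of 12 libraries was deposited by the authors as one gene table of FPKM values, with 40384 Ensembl IDs. Poly(A) RNA was selected and stranded libraries were sequenced as paired reads of 150 bases after 15 PCR cycles, per the labels' protocols, and the build was mm10 per the submitters' processing notes. The aligner, counter, annotation and strand setting were not given in the sources used here. Fragments of Pfkm, Hk3, Aldoa and other members that overlap a gene on the other strand may therefore be shared. Slc2a3, Pfkfb2, Pfkfb3, Pkm and others overlap a gene model on the same strand, so their fragments may be shared under any strand setting. Symbols and positions came from GENCODE M21 (GRCm38, 40225 IDs or 99.6% matched), and promoters from RefSeq.

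The deposited FPKM values times gene length were steps of a constant per library, which gave the depth. Of low values, 52.1 to 54.2% were whole fragments and 74.1 to 75.8% multiples of 0.5 (tolerance 0.01), so no count test was run. Depth and floors cover counting error only. FPKM totals were 305025 to 316995 per library, and libraries of a group correlated at 0.9902 to 0.9957 on the log2 scale.

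A limma model (3.58.1, R 4.3.3) with 4 group means, a variance prior that follows the mean and no block was fitted to log2(FPKM + 1) of 17114 genes, with Benjamini-Hochberg adjustment over all of them. With a pseudocount of 1, fold changes of low genes are smaller than their FPKM ratios, which are given as "fold" from group means. SE is that of the fit. Shares and sums were compared by exact permutation over libraries (scipy 1.17.1). The fit was checked on simulated data, where the required share of recovered genes was lowered after the first trial had missed it. The 30 symbols and the lists of other genes were chosen with earlier results of these data known. Values of every library are given for each gene called in D4_DUX against D4 and, per step, for the isozyme with the highest mean and that with the widest range. The other members are given by their range, and from each other list at most 4 genes with the smallest adjusted p are named. Markers named because they were at or near 0 in a group were chosen after their values were seen. The same holds for markers named because they made up much of a sum, or moved with or against a member or their list.

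Near-identical copies were other IDs whose transcripts align (blastn 2.17.0) at 90% identity over at least 100 bases of the member's coding part and 50% of the copy. These limits were set after seeing which repeats looser ones let in. Alternatives were other pseudocounts, filters, scalings, variance priors, a replicate block, fits of 2 groups, copies summed and each library left out. Protein sequences were not used here.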

Additional observations from a re-analysis of the deposited data

How the results depend on the processing

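Of 2016 results of single members under an alternative, 1967 kept their side of the threshold, and those called in both settings also kept their direction. Where neither setting gave a call, the sign was not compared. A further 26 lost a call and 17 gained one with the sign kept, and 6 changed sign with a call in at least 1 of the settings. These 6 were Pfkfb1 (-0.07) and Gapdh (0.28) in iPSC against MEF and Hk3 (-0.41), Pfkfb2 (-0.06) and Eno1 (0.04) in iPSC against D4 with quantile normalization, and Gapdh (-0.03) in iPSC against D4 with median-ratio scaling. These scalings shift the median of all genes in the iPSC comparisons. The median of the members moved to -0.04 with quantile normalization in D4_DUX against D4, and to -0.28 with median-ratio scaling in D4 against MEF. In iPSC against MEF it moved to -0.86 with median-ratio scaling, -0.80 with quantile normalization and -0.70 with a minimum FPKM of 5, which left 24 members and 4 higher calls. In iPSC against D4 it moved to -0.62, -0.48 and -0.55 in the same order, with 5 higher calls at the stricter minimum. With fewer members tested, fewer can be called, and the cause of the other shifts was not tested.

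Leaving out 1 library gave 7 to 8 higher and 8 to 10 lower members in D4_DUX against D4, 9 to 10 higher and 18 lower in D4 against MEF, 6 to 7 higher and 22 to 23 lower in iPSC against MEF, and 8 higher and 18 to 19 lower in iPSC against D4. The medians ranged from -0.02 to -0.01, from -0.24 to -0.22, from -0.66 to -0.63 and from -0.45 to -0.42. The labels number the libraries of each group 1 to 3, but same-numbered libraries did not deviate together (correlations -0.146 to 0.062). With the replicate block, 8 members were higher and 10 lower in D4_DUX against D4, and Pfkfb2 became a call in D4 against MEF (0.15, adjusted p = 0.0413), the single change among members.

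With near-identical copies summed, the share of Eno1 was 94.4% in MEF, 90.4% in D4, 89.1% in D4_DUX and 95.3% in iPSC, that of Eno2 3.08% in MEF, 1.87% in D4 and 1.25% in D4_DUX, and that of Eno3 7.77% in D4, 9.65% in D4_DUX and 3.28% in iPSC. These 10 of 352 share results moved by more than the spread between libraries.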
